A study of Mus musculus with 6 samples.

Results

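The 10 genes described here encode elastin and the proteins of the microfibrils and fibulins around it: Eln, Fbn1, Mfap4, Mfap5, Fbln1, Fbln2, Fbln5, Efemp1, Efemp2 and Emilin1. They were taken from a table of raw read counts by gene symbol. All 10 were found among its 14943 symbols, and all 10 passed the filter on low counts that left 13980 genes tested. The counts come from RNA sequencing of peritoneum, the membrane lining the abdominal cavity, from male wild-type C57BL/6J mice aged 8 weeks. The first group, with 3 libraries, is a model of encapsulating peritoneal sclerosis (EPS), in which fibrous tissue binds the bowel. Daily injections into the abdomen of these mice held a dialysis solution of 4.25% strength, given at 100 mL/kg, plus 0.3 mL of SHS, an agent the labels do not spell out. Lipopolysaccharide was added weekly at 4 mg/kg. The second group, also with 3 libraries, is control mice injected with saline in the same volume, and tissue was collected in week 3. The EPS mice received all agents together, so their separate effects cannot be told apart. The labels do not say how many animals went into a library, so p-values measure the spread between these libraries only.

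Elastic fibres give tissue its recoil. Their core is cross-linked elastin, deposited on a scaffold of fibrillin microfibrils, and fibulins, microfibril-associated proteins and emilin link the elastin to that scaffold and to cells. Lysyl oxidases cross-link the elastin, and microfibrils also hold latent TGF-beta through the latent TGF-beta binding proteins. In connective tissue these genes are known to be used by fibroblasts and smooth muscle cells.

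Libraries held between 15419232 and 17684229 counts. In EPS 1, 15.9% of counts fell on 12 marker genes of the exocrine pancreas, against 0.0242% to 0.374% in the other libraries. Controls 1 and 2 were the closest pair: their chi-square averaged 4.41 over genes, where other pairs within a group had 15.9 to 412 and sampling noise alone gives about 1. All 10 mesothelial markers had counts in every library. Their summed level was 378, 272 and 45.2 CPM in EPS 1 to 3 and lay between 134 and 215 CPM in controls. Keratin genes held a large part of it: Krt18 and Krt8 stood at 106 and 86.3 CPM in EPS 1, and Krt19 at 81.0 CPM in EPS 2. EPS 1 is also the library with the pancreas counts, and whether its keratin reads came from mesothelium was not tested. Only Upk3b had groups that did not overlap, with 51.6, 42.7 and 11.3 CPM in EPS 1 to 3 and 65.8 to 95.5 CPM in controls. In the test described below, none of the 10 markers was called. Without EPS 3, 4 were higher and 1 lower, where 4179 and 4148 of all genes tested in that fit were. DESeq2 called 2 higher, library totals 1 higher and a replicate block 1 lower. CPM is the count per 1000000 of a library size scaled by TMM, a factor that offsets differences in RNA composition. The summed level of 8 fat cell markers lay between 2198 and 3744 CPM in EPS and between 23606 and 24228 CPM in controls. That of 8 leukocyte markers lay between 1312 and 1556 CPM in EPS and between 173 and 186 CPM in controls. In whole tissue, fewer cells of a type and less RNA per cell cannot be told apart, and the part of these shifts in cell markers in the results below was not tested.

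The elastic fibre genes did not move as a block. Emilin1, Mfap4 and Efemp2 rose in EPS, Fbln5 and Efemp1 fell, and Eln, Fbn1, Mfap5, Fbln1 and Fbln2 did not pass the test. Calls rest on edgeR's quasi-likelihood F-test, with Benjamini-Hochberg adjustment over all tested genes and a threshold of 0.05. Thus 3 of 10 members were higher, where 29.2% of all tested genes were, and 2 of 10 were lower, where 30.4% were. The share of members called was not above that of all genes. The median log2 fold change, EPS over control, was 0.17 over the members and -0.02 over all tested genes. With library totals in place of TMM, the median of all genes was 0.41, and 4 members were called higher and 1 lower. There, 5657 of all 13980 tested genes were higher and 2182 lower. In that scaling Fbln5 lost its call and Eln gained one. EPS and control values did not overlap for 4 members that were higher, Eln among them, and 2 that were lower, where 33.1% and 35.4% of all tested genes were so separated. The 10 genes together took 0.158%, 0.321% and 0.178% of the counts in EPS 1 to 3 and between 0.133% and 0.142% in controls. These shares are not scaled by TMM. With that scaling, their summed level was 1685, 2513 and 1398 CPM in EPS 1 to 3 and lay between 1522 and 1656 CPM in controls. On that scale EPS 3 was below every control, EPS 1 was slightly above the highest control and EPS 2 was well above all controls.

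**Figure D1:**
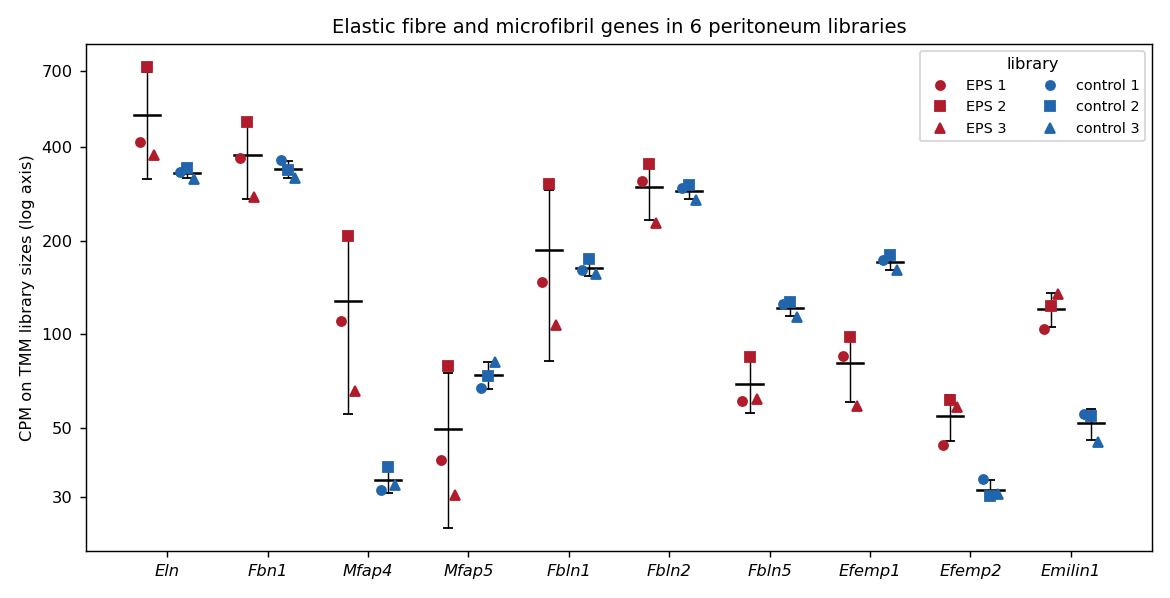
Level of each of the 10 genes in CPM on TMM-scaled library sizes (log axis) in 3 EPS libraries (red) and 3 control libraries (blue), with the marker shape giving the library number, bars the group mean and whiskers the SD. Emilin1, Efemp2 and Mfap4 were higher in all EPS libraries than in any control, Fbln5 and Efemp1 lower, and EPS 2 held the highest EPS value for every gene but Emilin1.

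Eln encodes tropoelastin, the monomer of the elastic core (chromosome 5, 134702593 to 134747323, minus strand). It stood at 414, 721 and 377 CPM in EPS 1 to 3, against 333, 341 and 315 CPM in controls 1 to 3. Every EPS library was above every control, but EPS 2 alone lay far above them. The log2 fold change was 0.61 ± 0.24 (SE), and the edgeR adjusted p of 0.0583 missed the threshold. This result depended on single libraries: the log2 fold change was 0.80 without EPS 1 (edgeR adjusted p = 0.0210), 0.78 without EPS 3 (0.0209) and 0.26 without EPS 2 (0.0641). DESeq2 called Eln (log2 fold change 0.66, adjusted p = 0.00796). Over 15 alternatives the adjusted p ran from 0.00796 to 0.151, and 8 of them missed the threshold.

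Fbn1 encodes fibrillin-1, the chief structural protein of microfibrils (chromosome 2, 125300594 to 125507993, minus strand). It stood at 369, 481 and 276 CPM in EPS 1 to 3, against 362, 338 and 317 CPM in controls 1 to 3. The EPS values lay on both sides of the control values. The log2 fold change was 0.15 ± 0.19 (edgeR adjusted p = 0.533), and -0.07 without EPS 2.

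Mfap4 encodes a microfibril-associated glycoprotein that binds elastin and fibrillin (chromosome 11, 61485431 to 61488900, plus strand). It reached 111, 207 and 65.7 CPM in EPS 1 to 3, against 31.6, 37.4 and 32.9 CPM in controls 1 to 3. All EPS values were above all control values, although they differed among themselves more than for any other member. The increase was 3.76-fold, with a log2 fold change of 1.91 ± 0.41 (edgeR adjusted p = 0.00715). It ranged between 1.37 without EPS 2 and 2.23 without EPS 3, and the call held in all 15 alternatives. The gene body of Mfap4 overlaps that of Mapk7 on the other strand, and no step marking strand is named, so reads of the shared bases cannot be assigned. Mapk7 had 361 to 989 counts in each library, and its log2 fold change of 0.73 (edgeR adjusted p = 0.00266) was smaller.

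Mfap5 encodes MAGP-2, a small glycoprotein of microfibrils (chromosome 6, 122505845 to 122529290, plus strand). It stood at 39.6, 78.9 and 30.5 CPM in EPS 1 to 3, against 67.2, 73.7 and 81.6 CPM in controls 1 to 3. EPS 1 and EPS 3 were below every control and EPS 2 was within the control range. The log2 fold change was -0.58 ± 0.34 (edgeR adjusted p = 0.187). Without EPS 2 it was -1.08 (edgeR adjusted p = 7.965e-04), so the lack of a call rests on that library. Mfap4 and Mfap5 thus stood on opposite sides of their controls in EPS 1 and EPS 3.

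Among the fibulins, Efemp2 rose, Fbln5 and Efemp1 fell, and Fbln1 and Fbln2 were not called. Efemp2 encodes fibulin-4, which brings lysyl oxidase to tropoelastin (chromosome 19, 5473954 to 5482517, plus strand). It stood at 44.1, 61.4 and 58.6 CPM in EPS 1 to 3, against 34.4, 30.2 and 30.8 CPM in controls 1 to 3, with every EPS value above every control value. The log2 fold change was 0.79 ± 0.14 (edgeR adjusted p = 0.00184) and lay between 0.70 and 1.24 in 15 alternatives, all of them called. Efemp2 overlaps Mus81 on the other strand, which had 183 to 370 counts in each library and a log2 fold change of -0.28 (edgeR adjusted p = 0.190).

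Fbln5 encodes fibulin-5, which tethers elastin to microfibrils and to cell-surface integrins (chromosome 12, 101746565 to 101819055, minus strand). It stood at 61.0, 84.8 and 62.2 CPM in EPS 1 to 3, against 125, 127 and 113 CPM in controls 1 to 3. All EPS values were below all control values. The gene was 1.76-fold lower, with a log2 fold change of -0.81 ± 0.14 (edgeR adjusted p = 0.00162). With library totals as the only scaling the log2 fold change was -0.37 and the call was lost (adjusted p = 0.181). Over 15 alternatives the adjusted p ran from 1.279e-05 to 0.181.

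Efemp1 encodes fibulin-3, a fibulin of connective tissue (chromosome 11, 28853204 to 28926743, plus strand). It stood at 85.4, 98.3 and 58.8 CPM in EPS 1 to 3, against 173, 179.9 and 161 CPM in controls 1 to 3. It had the largest decrease of the 10 genes in this fit, 2.12-fold, and again the groups did not overlap. The log2 fold change was -1.08 ± 0.18 (edgeR adjusted p = 0.00123), and the call held in all 15 alternatives, with values between -1.25 and -0.66.

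Fbln1 encodes fibulin-1, found in elastic fibres and basement membranes (chromosome 15, 85205949 to 85286535, plus strand). It stood at 148, 305 and 107 CPM in EPS 1 to 3, against 161, 174 and 156 CPM in controls 1 to 3. EPS 2 was above every control, and the other EPS libraries were below them. The log2 fold change was 0.19 ± 0.37 (edgeR adjusted p = 0.683), and without EPS 2 it was -0.36 (adjusted p = 0.0767). Fbln2 encodes fibulin-2, which binds fibrillin and elastin precursors (chromosome 6, 91212455 to 91272540, plus strand). It stood at 310.4, 353 and 228 CPM in EPS 1 to 3, against 295, 300.4 and 269.7 CPM in controls 1 to 3. Its groups overlapped, and its log2 fold change was 0.04 ± 0.16 (edgeR adjusted p = 0.838), or -0.10 without EPS 2.

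Emilin1 encodes the elastin microfibril interfacer emilin-1, a glycoprotein at the border of elastin and microfibrils that also restrains the processing of TGF-beta precursors (chromosome 5, 30913402 to 30921277, plus strand). It stood at 104, 123 and 134 CPM in EPS 1 to 3, against 55.6, 54.8 and 45.0 CPM in controls 1 to 3. The EPS values were close together and all above the controls. The increase was 2.33-fold, with a log2 fold change of 1.22 ± 0.13 and the lowest adjusted p of the 10 genes in this fit (edgeR, 1.243e-04). The call held in all 15 alternatives, with values between 1.12 and 1.66.

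**Figure D2:**
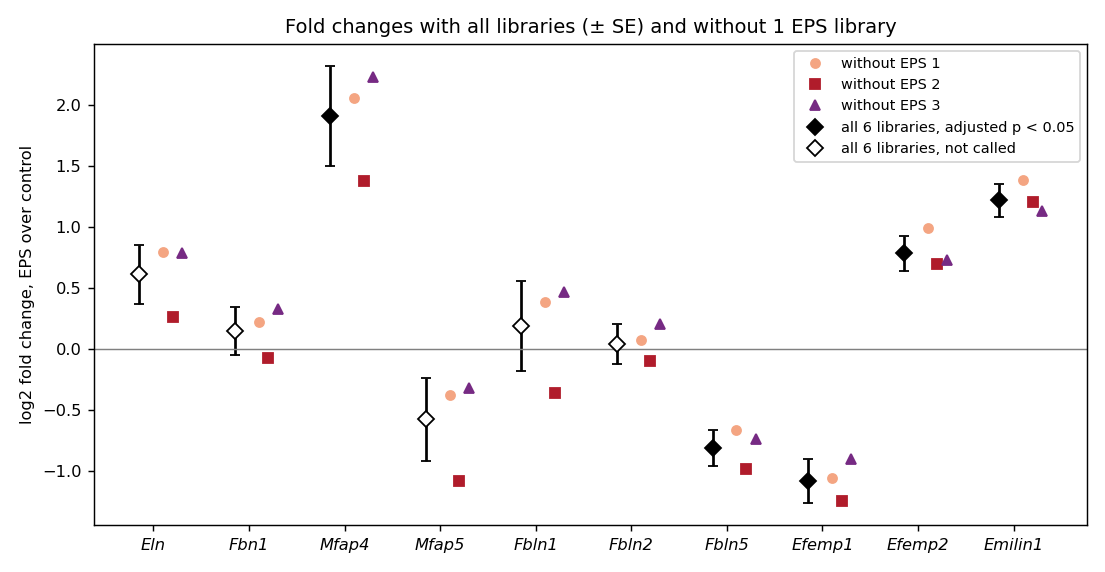
Log2 fold change of each gene, EPS over control, with all 6 libraries (diamonds, filled where edgeR's adjusted p was under 0.05, whiskers ± SE) and without EPS 1, EPS 2 or EPS 3 (coloured points). Leaving out EPS 2 lowered the value of all 10 genes, placed Fbn1, Fbln1 and Fbln2 below 0 and Mfap5 at -1.08, and left Emilin1 at 1.21.

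The start regions of 4 called genes are shown here since these genes moved in opposite directions. Of the 10 members, 7 had an entry in the RefSeq promoter table (GRCm38.p6), with 11 windows in all, each reaching 250 bases before to 50 bases after a start site. Eln, Mfap4 and Mfap5 had none. Where a gene has several windows, the one farthest upstream is printed, and capitals mark matches to GGGCGG (the core of the Sp1 site) and CAGACA (which holds the CAGA letters of SMAD sites) on either strand.
Emilin1 (higher; chr5:30913536-30913835, plus strand): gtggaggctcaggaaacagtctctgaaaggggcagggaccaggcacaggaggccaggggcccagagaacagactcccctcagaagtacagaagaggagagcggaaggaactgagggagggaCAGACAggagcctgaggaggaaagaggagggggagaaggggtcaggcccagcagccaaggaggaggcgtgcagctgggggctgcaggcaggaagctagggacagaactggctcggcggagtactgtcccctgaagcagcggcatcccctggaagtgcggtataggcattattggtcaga
Efemp2 (higher; chr19:5473696-5473995, plus strand): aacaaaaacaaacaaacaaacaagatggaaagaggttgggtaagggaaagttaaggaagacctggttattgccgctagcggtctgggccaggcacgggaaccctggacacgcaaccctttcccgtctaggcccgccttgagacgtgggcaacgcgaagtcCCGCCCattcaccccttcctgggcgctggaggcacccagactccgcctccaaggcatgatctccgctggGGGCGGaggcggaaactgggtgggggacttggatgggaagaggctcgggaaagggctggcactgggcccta
Fbln5 (lower; chr12:101819070-101819369, minus strand): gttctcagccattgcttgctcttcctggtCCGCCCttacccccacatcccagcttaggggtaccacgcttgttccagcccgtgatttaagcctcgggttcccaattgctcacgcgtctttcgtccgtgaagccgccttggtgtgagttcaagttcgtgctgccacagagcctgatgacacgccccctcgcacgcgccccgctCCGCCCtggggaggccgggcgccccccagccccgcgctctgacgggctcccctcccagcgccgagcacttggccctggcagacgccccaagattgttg
Efemp1 (lower; chr11:28852955-28853254, plus strand): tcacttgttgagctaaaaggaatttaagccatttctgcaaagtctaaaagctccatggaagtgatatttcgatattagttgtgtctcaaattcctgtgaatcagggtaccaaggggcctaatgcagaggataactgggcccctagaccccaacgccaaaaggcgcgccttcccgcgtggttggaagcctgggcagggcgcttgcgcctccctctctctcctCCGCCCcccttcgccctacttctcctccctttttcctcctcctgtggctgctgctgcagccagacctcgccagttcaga

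In these windows, Emilin1 held CAGACA at -129 from the start site and no GGGCGG. Efemp2 held GGGCGG at -21 and, on the other strand, at -90. Fbln5 held it on the other strand at -221 and -48, and Efemp1 on the other strand at -29. GGGCGG was therefore present both in a gene that rose and in those that fell. So was CAGACA, since the other window of Fbln5, which is not printed, held it at -15. Both windows of Fbln1, which was not called, also held CAGACA. Over all windows, 8 of the 11 member windows held GGGCGG and 4 held CAGACA, where 35.7% and 21.0% of 32851 promoter windows of the same length did. Some windows of 1 gene overlap, so they are not independent. TATAAA was in no member window and in 13.6% of all windows. TGANTCA, the AP-1 letters, was in 1 member window, that of Efemp1, at -154, and in 7.81% of all windows. These matches describe letters only.

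The EPS libraries differed among themselves in most of these genes. EPS 2 was the highest of them for 9 of the 10 members, Emilin1 being the exception, while it was the highest for 29.7% of all tested genes. EPS 3 was the lowest for 7 of the 10 members and for 35.8% of all tested genes. Relative to the mean of EPS 1 and EPS 3, EPS 2 was higher by 1.26 on the log2 scale for Fbln1, 1.23 for Mfap4, 1.17 for Mfap5 and 0.87 for Eln, against a median of -0.02 over all tested genes. For Efemp2 and Emilin1 this difference was 0.26 and 0.05. The coefficient of variation within EPS ran from 12.6% for Emilin1 to 56.6% for Mfap4, where the median of all tested genes was 16.7%. Within controls it ran from 4.01% for Eln to 11.5% for Emilin1, with a median of 9.18% over all genes. Without EPS 2, 3 members were higher and 3 lower, where 28% and 29.5% of all genes tested in that fit were.

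Summed markers of smooth muscle, fibroblasts and skeletal muscle were also highest in EPS 2 among the EPS libraries, as were, by smaller margins, those of pericytes and fat cells. The summed level of 8 smooth muscle genes was 1494, 3823 and 1324 CPM in EPS 1 to 3 and lay between 5213 and 5774 CPM in controls. EPS 2 was the highest EPS library for 7 of these 8 genes. Myh11, the smooth muscle myosin heavy chain, stood at 509, 1475 and 329 CPM in EPS 1 to 3, against 1916, 2056 and 1845 CPM in controls. The 8 genes include Tagln, listed with only 2 to 27 counts per library, where Acta2, the smooth muscle actin, stood at 536 to 1400 CPM in EPS and 1949 to 2134 CPM in controls. Whether the reads of Tagln were fully counted was not tested, and its value is uncertain. The summed level of 10 fibroblast genes was 9694, 13220 and 7512 CPM in EPS 1 to 3 and lay between 4113 and 4365 CPM in controls, and EPS 2 was the highest EPS library for 9 of them. Most of this sum in every library came from the collagen genes Col1a1, Col1a2 and Col3a1, so it mainly follows those transcripts. The summed level of 6 skeletal muscle genes was 8.04, 68.8 and 9.02 CPM in EPS 1 to 3 and lay between 34.2 and 50.4 CPM in controls. Most of it in EPS 2 was Acta1, the skeletal muscle actin, at 60.5 CPM. No gene of these lists was at 0 in any library. Of the 8 smooth muscle genes, 6 were lower, Tagln among them, and none higher in EPS (edgeR), where 30.4% of all tested genes were lower. With library totals 3 were lower, where 2182 of all 13980 tested genes were. Of the 10 fibroblast genes, 6 were higher and none lower, where 29.2% of all tested genes were higher. Pdgfra, Dcn, Dpt and Col15a1 were not called, with log2 fold changes of 0.04, 0.25, -0.52 and -0.58. DESeq2 gave 6 higher and 2 lower fibroblast genes, and edgeR gave 5 and 2 with a replicate block and 5 and 2 without EPS 2. The part of these cell markers in the values of the elastic fibre genes was not tested.

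**Figure D3:**
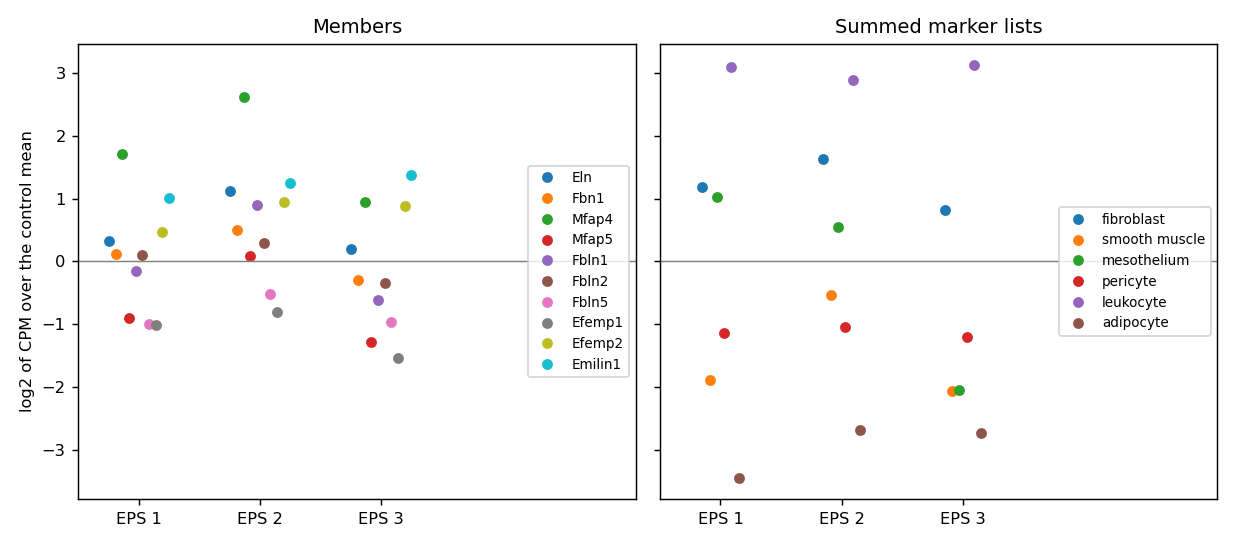
Log2 of the CPM in each EPS library over the mean of the 3 controls, for the 10 elastic fibre genes (left) and for the summed CPM of marker lists (right), with 0 marking the control mean. EPS 2 held the highest value of 9 genes and of the fibroblast and smooth muscle sums, while the leukocyte sum was lowest in EPS 2.

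Levels per length placed the genes in an order that differed between the groups. CPM was divided by the union of annotated exons in kilobases. In EPS, Mfap4 stood at 66.5 ± 37.7 CPM per kb (SD, n = 3), Eln at 62.2 ± 23.3, Fbln2 at 46.6 ± 9.97, Fbln1 at 42.7 ± 23.9 and Efemp1 at 39.7 ± 9.90. The SD ranges of these genes overlapped. The genes were measured in the same libraries, so the SD between libraries does not measure the difference between genes. Within each EPS library Eln stood above Fbln2, Fbln1 and Efemp1. Fbn1 followed at 30.9 ± 8.47 CPM per kb, Emilin1 at 24.4 ± 3.09, Efemp2 at 14.4 ± 2.46, Mfap5 at 13.8 ± 7.17 and Fbln5 at 10.03 ± 1.93. In controls, Efemp1 was first at 84.0 ± 4.81 CPM per kb, well above Fbln2 at 45.3 ± 2.58. Eln at 40.7 ± 1.63 and Fbln1 at 37.5 ± 2.14 came next in controls, then Fbn1 at 27.9 ± 1.83, Mfap5 at 20.7 ± 2.00, Mfap4 at 17.7 ± 1.57 and Fbln5 at 17.6 ± 1.07. Mfap5, Mfap4 and Fbln5 lay within or near each other's SD there, although Mfap5 was above Mfap4 and Fbln5 in every control library. Emilin1 at 10.5 ± 1.20 and Efemp2 at 8.39 ± 0.595 were last. The place of Eln depends on the length used, since its exon union has 8098 bases and its longest transcript 3853. With the longest transcript Eln stood at 131 ± 49.0 CPM per kb in EPS and 85.5 ± 3.43 in controls, level in controls with Efemp1.

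Ratios within a library do not depend on how libraries are scaled. The ratio of Eln to Fbn1, both per kb, was 1.68, 2.24 and 2.05 in EPS 1 to 3, against 1.38, 1.51 and 1.49 in controls 1 to 3, so it was higher in every EPS library. For Efemp1 to Fbn1 it was 1.38, 1.22 and 1.27 in EPS 1 to 3, against 2.85, 3.17 and 3.01 in controls. For Mfap4 it was 1.89, 2.72 and 1.504 in EPS 1 to 3, against 0.552, 0.699 and 0.655 in controls. Of 9 members set against Fbn1, 4 ratios were higher in every EPS library (Eln, Mfap4, Efemp2, Emilin1) and 3 were lower in every one (Mfap5, Fbln5, Efemp1). Over all tested genes, the ratio to Fbn1 was separated upward in 21.5% and downward in 32.4%. Each of these 7 ratios had an exact two-sided permutation p of 0.1, the smallest that 3 against 3 allows, and 0.129 after adjustment over 9 ratios. Those of Fbln1 and Fbln2 overlapped (p = 0.8 and 0.4 by the same exact test).

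Col1a1, the main chain of type I collagen, rose 4.84-fold in EPS, to 2233 ± 782 CPM against 461 ± 34.6 CPM in controls (SD, n = 3 each; edgeR adjusted p = 1.110e-04). The largest increase of a member, that of Mfap4, was 3.76-fold. The ratio of each member to Col1a1 was lower in every EPS library than in any control for all 10 genes, which was also so for 85% of all tested genes. Eln per Col1a1 was 0.184, 0.186 and 0.175 in EPS 1 to 3, against 0.578, 0.560 and 0.602 in controls. It varied little among the EPS libraries, whose Eln levels themselves differed. Efemp1 per Col1a1 was 0.151, 0.101 and 0.109 in EPS 1 to 3, against 1.19, 1.18 and 1.22 in controls. Mfap4 per Col1a1, with 0.208, 0.226 and 0.129 in EPS 1 to 3 against 0.231, 0.259 and 0.265 in controls, had the smallest shift of the 10. Each ratio had an exact two-sided permutation p of 0.1, the smallest possible here, also after adjustment over 10 ratios.

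**Figure D4:**
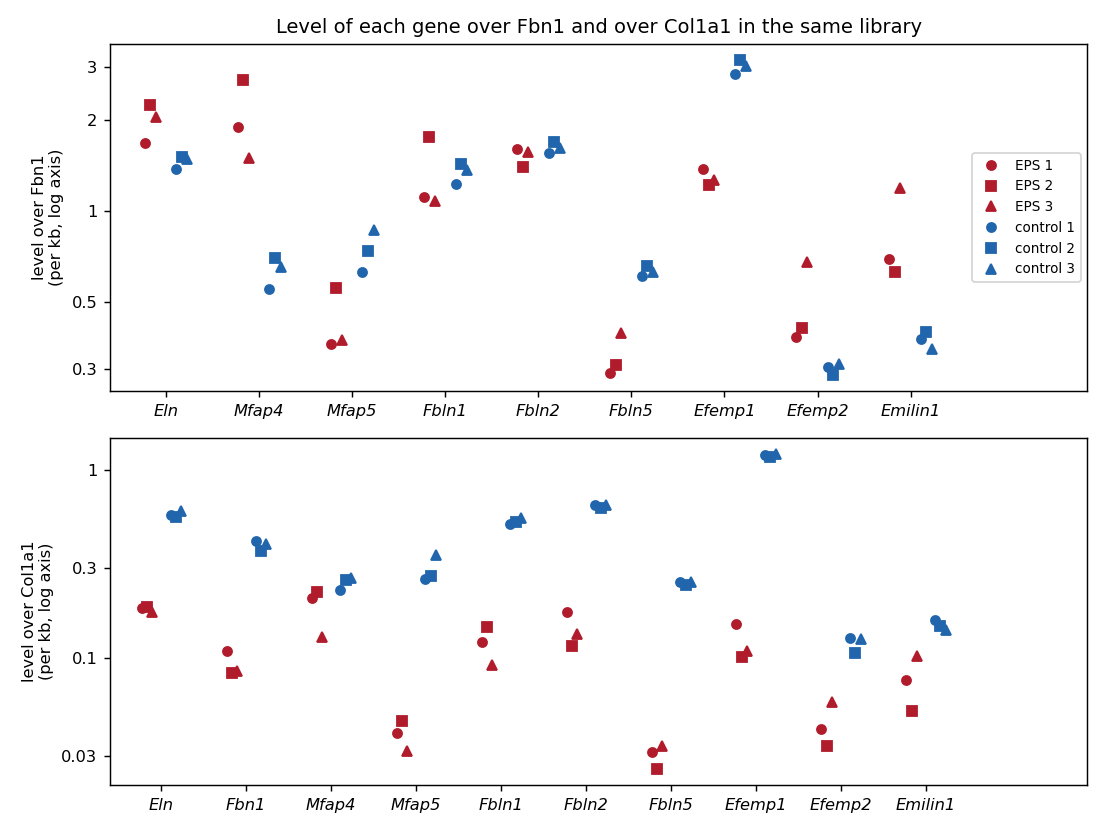
Length-scaled level of each gene divided by that of Fbn1 (upper panel) and of Col1a1 (lower panel) in the same library (log axes), with 3 EPS libraries in red and 3 control libraries in blue. Relative to Fbn1 the genes moved both ways, with Efemp1 between 1.22 and 1.38 in EPS and between 2.85 and 3.17 in controls, and relative to Col1a1 every gene was lower in EPS.

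The genes whose values over the 6 libraries were most like those of Eln were Col6a1, Tlr3, Col5a1, Col14a1 and Postn. Likeness was the root-mean-square difference of log2 CPM after each gene was centred on its mean, over 6 libraries and 12001 candidate genes, and it was 0.0815, 0.0879, 0.0921, 0.113 and 0.125 in that order. Col6a1, a chain of type VI collagen, stood at 517, 905 and 437 CPM in EPS 1 to 3, against 433, 469.9 and 425 CPM in controls. Postn, which encodes periostin, stood at 119.9, 167 and 83.6 CPM in EPS 1 to 3, against 86.8, 80.9 and 78.0 CPM in controls. Since these genes were chosen for their likeness to Eln, their peak in EPS 2 follows from the choice. Col14a1, a fibril-associated collagen, was the only one of the 5 that edgeR called (log2 fold change 0.62 ± 0.18, adjusted p = 0.0159).

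Of 51 further genes of the elastic fibre pathway, 50 were in the table and tested, and 25 were higher and 15 lower in EPS (edgeR), beside 29.2% higher and 30.4% lower over all tested genes. The share of lower genes was thus near that of all genes. Their median log2 fold change was 0.43. With library totals as scaling, 26 were higher and 6 lower, where 5657 of all 13980 tested genes were higher and 2182 lower. Of 13 partners of the microfibril, 3 rose and 6 fell (median -0.48), and under library totals 4 rose and 2 fell. Ltbp4, a latent TGF-beta binding protein that works with fibulin-5 in elastic fibre assembly, stood at 241 ± 74.6 CPM in EPS and 829.7 ± 27.8 CPM in controls (log2 fold change -1.78 ± 0.21, edgeR adjusted p = 1.979e-04). Ltbp3, of the same family, stood at 189 ± 27.4 CPM in EPS and 431 ± 11.6 CPM in controls. Fbn2, the fibrillin of developing tissue, rose 7.93-fold to 10.4 ± 4.64 CPM in EPS, against 1.31 ± 0.245 CPM in controls. Mfap2, which encodes MAGP-1, rose to 18.5 ± 4.00 CPM in EPS, against 5.30 ± 1.503 CPM in controls. All of these means are over 3 libraries with their SD.

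Of 8 genes that cross-link or handle elastin, 6 rose and 1 fell (median log2 fold change 0.76), where 29.2% of all tested genes were higher. Lox, a lysyl oxidase, stood at 81.4 ± 10.5 CPM in EPS and 49.1 ± 2.05 CPM in controls (log2 fold change 0.73 ± 0.12, edgeR adjusted p = 9.523e-04). On the log2 scale Loxl3, of the same enzyme family, rose by 1.10 ± 0.19, and Fkbp10, a chaperone of collagen and tropoelastin, by 0.80 ± 0.15. The transglutaminase gene Tgm2 was lower by TMM (-0.59 ± 0.10) but not by library totals (-0.15, adjusted p = 0.560). All 3 genes of the elastin receptor complex rose (median 0.58): Ctsa, protective protein cathepsin A, by 1.06 ± 0.11, Neu1, a neuraminidase, by 0.58 ± 0.12, and Glb1 by 0.42 ± 0.14. Glb1 is the galactosidase gene whose splice form is the elastin-binding protein, and gene counts do not separate the forms. Its call was lost in 4 alternatives: the adjusted p was 0.0586 with controls 1 and 2 summed, 0.0876 when either control 1 or EPS 2 was left out, and 0.110 when control 3 was.

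Of 9 genes of proteases that cut elastin, 8 rose and none fell (median log2 fold change 2.41), where 29.2% of all tested genes were higher. The count was 5 without EPS 2 and 5 with limma-voom. Ctsg, the neutrophil cathepsin G, had no control count and passed the filter on low counts only through the EPS group. It is among these 8 and among the 25 higher pathway genes. Its direction was fixed by that filter, so its call lends nothing to the comparison with all genes. Ctss, which encodes cathepsin S of antigen-presenting cells, stood at 589 ± 26.5 CPM in EPS and 31.9 ± 5.73 CPM in controls, and Mmp2, a gelatinase, at 239 ± 82.3 CPM in EPS and 50.6 ± 2.17 CPM in controls. Ctsk, cathepsin K, rose by 1.42 ± 0.20 on the log2 scale. Prtn3, the neutrophil proteinase 3, rose by 5.05 ± 0.87, or 3.91 without EPS 3. limma-voom did not call Prtn3 (adjusted p = 0.0741; range over the alternatives 4.171e-09 to 0.0741). The summed leukocyte markers, between 1312 and 1556 CPM in EPS and between 173 and 186 CPM in controls, were higher in every EPS library too, and their part in the protease values was not tested. The inhibitors split: on the log2 scale Timp1, a metalloproteinase inhibitor, rose by 4.32 ± 0.36 and Slpi, a leukocyte protease inhibitor, by 3.34 ± 0.46. Timp3, of the Timp1 family, fell by 1.17 ± 0.18 and Cst3, cystatin C, by 0.59 ± 0.14. In all, 2 of 5 inhibitors were higher and 3 lower, where 29.2% of all tested genes were higher and 30.4% lower. With library totals the counts were 2 and 1, where 5657 of all 13980 tested genes were higher and 2182 lower. Cst3 lost its call there (adjusted p = 0.649).

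Of 6 integrin chains that bind these proteins, 2 were higher and 1 lower, beside 29.2% higher and 30.4% lower over all tested genes. The share of higher chains was thus near that of all genes. The counts were 1 and 1 without control 2 or without control 3, and 2 and 3 without EPS 2. On the log2 scale Itgb5 fell by 1.15 ± 0.14 and Itgb3 rose by 0.82 ± 0.15. Itgav rose by 0.44 ± 0.13, a call that was lost without control 2 (adjusted p = 0.0661) or control 3 (0.0629). Among relatives of the members, 1 of 6 was higher and 4 lower (median -0.84), beside the same 29.2% and 30.4% of all tested genes. With library totals 2 were higher and 2 lower, where 5657 of all 13980 tested genes were higher and 2182 lower. Emilin2, like Emilin1 in the members, rose (0.84 ± 0.12). Hmcn2, hemicentin 2, was 8.79-fold lower, at 25.7 ± 13.3 CPM in EPS and 226 ± 5.24 CPM in controls. On the log2 scale Fbln7, fibulin-7, fell by 1.55 ± 0.28 and Mmrn2, a multimerin of endothelial cells, by 0.71 ± 0.09. Library totals gave no call for Mmrn2 (adjusted p = 0.239). The summed level of 6 blood endothelial markers lay between 830.2 and 1039 CPM in EPS and between 1977 and 2041 CPM in controls, and its part in the value of Mmrn2 was not tested.

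**Figure D5:**
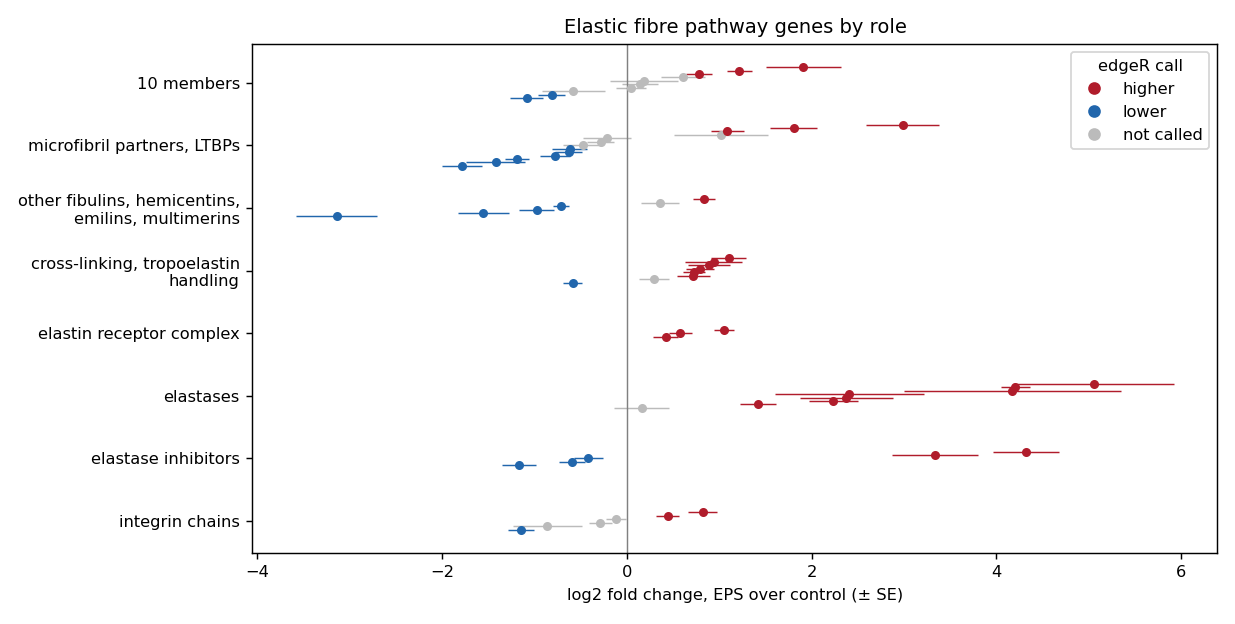
Log2 fold change, EPS over control (± SE), of the 10 members and of the other elastic fibre pathway genes by role, coloured by edgeR's call. Ctsg is left out of the elastases because it had no control count. Elastases and cross-linking genes lie mostly above 0, with medians of 2.41 (all 9 elastases, Ctsg included) and 0.76, and microfibril partners mostly below it, with a median of -0.48.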

How the data were processed

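RNA of 6 peritoneum libraries, 3 EPS and 3 control, was selected by poly(A), fragmented and copied with random primers, per the labels' protocols, which name no strand-marking step. The authors deposited raw counts of reads per gene symbol. Build mm10 is given per the submitters' processing notes. No source used here names the aligner, the counter or the annotation.

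Samples were grouped by title. edgeR 4.0.16 in R 4.3.3 (filterByExpr, TMM, robust quasi-likelihood F-test, no covariates) compared EPS with control, and 963 symbols were not tested. The ± of a log2 fold change is the estimate over the square root of F. Lengths, coordinates and overlaps are from GENCODE vM21, 1-based; the authors' own gene models may differ. Ratios were tested by exact permutation over 20 splits. The edgeR test was checked on simulated counts. It called 3 of 67 genes changed 1.5-fold, 33 of 67 changed 2-fold, 66 of 66 changed 4-fold and 5 of 13940 unchanged genes. The simulation gave all genes in both groups the same dispersion, so it does not carry the unequal spread of these libraries.

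Members and lists were chosen with earlier results of these data known. Named are all 10 members, up to 4 called genes of lowest adjusted p per pathway list, and the 5 genes most like Eln. Other genes named (Col1a1, Col1a2, Col3a1, Pdgfra, Dcn, Dpt, Col15a1, Myh11, Acta2, Acta1, Tagln, Krt8, Krt18, Krt19, Upk3b, Mapk7, Mus81, Ctsg) come from the marker and pathway lists or overlap a member. Some were named after their values were seen. Alternatives were RLE and upper-quartile factors, library totals, no filter, DESeq2 1.42.0, limma-voom (limma 3.58.1), a replicate block, pancreas genes left out, controls 1 and 2 summed, and each library left out. Same-numbered EPS and control libraries are not known to share a source.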

Additional observations from a re-analysis of the deposited data

How the results depend on the processing

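Mfap4, Efemp1, Efemp2 and Emilin1 kept their direction and their call in all 15 alternatives. With library totals only, 1 member, 6 pathway genes and 2182 of all tested genes were lower, in place of 2, 15 and 4245, and 5657 of all genes were higher, in place of 4088; that scaling leaves RNA composition uncorrected. The counts of all genes with 1 library left out ran from 3459 to 4393 higher and from 3545 to 4155 lower. Fbn1, Fbln1 and Fbln2 changed sign without 1 library, while Eln and Mfap5 did not: over such fits the log2 fold change ran from -0.070 to 0.33 for Fbn1, from -0.36 to 0.47 for Fbln1 and from -0.10 to 0.20 for Fbln2, and the log2 difference of the Fbln1 to Fbn1 ratio from -0.29 to 0.059. The cause was not tested. Whether replicate numbers pair the libraries is not settled: deviations of same-numbered EPS and control libraries correlated at 0.201, -0.095 and 0.236. Pairs of unlike number ran from -0.317 to 0.195. EPS 1 correlated best with control 1, and EPS 2 and EPS 3 both with control 3. With a replicate block, 4 members were higher and 2 lower, Eln being called (log2 fold change 0.55, adjusted p = 0.0465). Every member had at least 443 counts in every library, so spread between libraries rather than counting limits the precision; uncalled members are not shown to be unchanged.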
